A study of Mus musculus with 48 samples.

Results

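The genes described are 38 proliferation and cell cycle control genes, taken from a list of symbols, out of the 54752 Ensembl genes in an expression matrix of 48 RNA-seq libraries. The list was chosen with earlier results of these data known. All 38 matched exactly 1 row each. They fall into 5 groups by role: 14 genes of mitosis and G2 phase, 10 of DNA replication and nucleotide supply, 4 of the G1 to S transition, 5 D cyclins and their kinases, and 5 kinase inhibitors. Their levels are given in TPM (a transcript's share of its library, corrected for length), which lets genes of different length be compared. Because TPM is a share, it also shifts with the composition of a library. The question was whether a lymphatic growth factor given for several weeks leaves a proliferative expression pattern in the cells that carry its receptor, or in their neighbours in the heart.

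Mice were of the Prox1-eGFP line on a C57BL/6J background, in which an IRES-eGFP cassette was knocked into the endogenous Prox1 locus, so that cells expressing this lymphatic transcription factor fluoresce. All groups, controls included, carried the reporter and an osmotic pump placed under the skin. Cells were taken 5 to 6 weeks after the pump was placed. The ctrl group received BSA, the angII group angiotensin II and BSA, and the angII+VEGFC group angiotensin II and VEGFCc156s, a form of VEGF-C that activates VEGFR3 and not VEGFR2. Labelled ages were 8 to 16 months. The authors give the age of these mice in weeks, and the labels were used here. In heart LECs they were 9, 8, 16 and 16 months in ctrl, and 8, 14, 16, 16 and 14 months with angII. With angII+VEGFC they were 15, 8 and 8 months, so age was not balanced between groups. Heart lymphatic endothelial cells (LECs), diaphragm LECs and heart blood endothelial cells (BECs) were sorted as CD31+ CD45.2- cells, eGFP+ for LECs and eGFP- for BECs, while cardiomyocytes were pelleted and not sorted. Each of the 4 populations had 4 ctrl, 5 angII and 3 angII+VEGFC libraries, each from 1 mouse. The treatment groups held different mice, and a mouse gave libraries to several populations.

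Cells enter the cycle when D cyclins with Cdk4 and Cdk6 inactivate the retinoblastoma protein, which frees E2F factors to switch on genes of the G1 to S transition and of DNA replication. Later, cyclin A2 and the B cyclins with Cdk1 drive G2 phase and mitosis, and the genes of that wave are shared so widely by dividing cells that they serve as markers of proliferation. The inhibitors of the Cdkn1 and Cdkn2 families hold these kinases back. Adult endothelium is mostly quiescent, and adult cardiomyocytes have largely left the cell cycle. In bulk libraries a smaller share of cycling cells and less of a transcript per cell cannot be told apart.

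The library totals were 997657.23 to 999928.73 TPM, and 12924 to 25896 genes reached 1 TPM. TPM keeps no read count, so sequencing depth is unknown and no counting error can be given. The lymphatic markers fixed for the label check summed to 16281 to 29900 TPM in heart LECs and 20069 to 40272 TPM in diaphragm LECs. They summed to 208 to 672 TPM in heart BECs and 92.6 to 271 TPM in cardiomyocytes. These ranges set LECs apart from the other populations as labelled. They do not separate heart from diaphragm LECs, or heart BECs from cardiomyocytes. The unsorted cardiomyocyte pellets held cardiomyocyte markers at 6951 to 19112 TPM and erythroid markers at 8953 to 24892 TPM. They also held blood endothelial markers at 1855 to 3179 TPM and fibroblast markers at 2157 to 4724 TPM. Some libraries stood apart from the rest in the cycle genes themselves. Mouse 6, which is angII+VEGFC replicate 2 in all populations, held the highest value of 23 of the 38 genes in heart BECs, 14 in cardiomyocytes and 9 in heart LECs. Cardiomyocyte angII replicate 5 was highest in 13 genes, 12 of them mitotic. Diaphragm LEC angII replicate 3 was highest in 12 genes and lowest in 12 others. It came from mouse 4, labelled 8 months, while angII replicate 3 of the other populations was mouse 12, labelled 16 months. Its sums of lymphatic markers (20069 TPM) and of markers of endothelium in general (650 TPM) were the lowest among diaphragm LECs. The main values that rest on these libraries are also given without them.

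Promoters of 4 genes are shown because the mitotic genes were high together in single libraries, such as cardiomyocyte angII replicate 5, and because short motifs are known to sort the mitotic and replication waves. Cdk1 (the mitotic kinase, chr10:69352913-69353052), Top2a (which untangles DNA, chr11:99024190-99024389), Mki67 (the Ki-67 antigen, chr7:135716460-135716579) and Mcm6 (a subunit of the replicative helicase, chr1:128359706-128359825) all lie on the minus strand of GRCm38.p6. The sequences are from RefSeq, run 5′ to 3′ upstream of the annotated start of each gene, and have motif matches in capitals.
Cdk1: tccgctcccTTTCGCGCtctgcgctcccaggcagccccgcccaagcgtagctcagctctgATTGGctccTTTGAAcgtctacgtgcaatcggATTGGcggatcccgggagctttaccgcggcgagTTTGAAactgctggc
Top2a: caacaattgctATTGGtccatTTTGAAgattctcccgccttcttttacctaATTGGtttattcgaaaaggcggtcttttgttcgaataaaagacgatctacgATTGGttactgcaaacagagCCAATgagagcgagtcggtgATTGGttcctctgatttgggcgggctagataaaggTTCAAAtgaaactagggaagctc
Mki67: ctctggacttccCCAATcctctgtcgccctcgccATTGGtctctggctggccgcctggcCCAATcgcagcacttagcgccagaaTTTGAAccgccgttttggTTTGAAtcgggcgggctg
Mcm6: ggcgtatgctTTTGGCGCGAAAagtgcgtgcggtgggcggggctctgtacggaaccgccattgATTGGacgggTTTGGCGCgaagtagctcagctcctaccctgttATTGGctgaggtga

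Letters were searched on both strands of windows from 250 bases before to 50 bases after the start. The core of the cell cycle homology region (CHR) was searched as TTTGAA or TTCAAA, the CCAAT box as CCAAT or ATTGG, and the E2F motif as TTTGGCGC, TTTCCCGC or TTTCGCGC or the reverse complement of any of these. Entries were found for 29 of the 38 genes, 10 of them mitotic and 9 of the replication group. The CHR core lay in the windows of 7 of the 10 mitotic genes and 1 of the 9 replication genes, against 17.9% of all 32851 promoters. An E2F match lay in 1 mitotic promoter, that of Cdk1, and in 4 replication promoters, those of Mcm3, Mcm5, Mcm6 and Mcm7, against 1.84% of all promoters. CCAAT boxes were in 9 of 10 mitotic and 8 of 9 replication promoters, against 37.4% of all. In Cdk1 the E2F match ran from -131 to -124 and the CHR cores began at -71 and -15. In Mcm6 the E2F match from -110 to -103 overlapped another on the opposite strand, from -106 to -99. A match describes these letters and no binding was measured.

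Growth factor treatment was compared first in heart LECs, which carry VEGFR3. No cycle gene differed between angII+VEGFC and angII at an adjusted p under 0.05 (limma with Benjamini-Hochberg adjustment over all genes tested; 0 of 38 genes, where 0% of all 26803 genes passed). At an unadjusted p under 0.05, 1 gene was higher, where 1.09% of all genes were, and 4 genes were lower, where 9.75% of all genes were. All 14 mitotic genes had a negative log2 difference, with a median of -0.98 against -0.37 over all genes, 19308 of which were also negative. Quantile normalization moved the median of all genes to 0.01 and that of the mitotic genes to -0.34, with 4 of 14 positive. Genes detected at 1 TPM numbered 16756 to 18884 in the angII+VEGFC libraries and 19957 to 25896 in the angII libraries. With that number as a covariate the mitotic median was -1.62 and 2 of 14 were positive. The groups did not overlap in it, so that fit cannot tell its part from that of treatment. Blood endothelial markers summed to 3129 to 7543 TPM with angII and 2007 to 2338 TPM with angII+VEGFC. Erythroid markers summed to 2063 to 6531 TPM and 12.2 to 575 TPM, also without overlap, while the other marker sums overlapped. The part of such cells in the cycle gene values was not tested.

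Ki-67 is present in cycling cells and absent from resting ones. Its transcript Mki67 was at 2.77, 1.94, 8.55 and 1.28 TPM in ctrl heart LECs, 6.63, 4.02, 0.923, 2.00 and 2.86 TPM with angII, and 0.897, 2.08 and 0.388 TPM with angII+VEGFC. The groups overlapped, and the log2 difference of angII+VEGFC from angII was -0.84 (SE 0.70, 95% interval -2.32 to 0.63, limma adjusted p = 0.647). Top2a was at 25.9, 6.06, 1.39 and 1.97 TPM in ctrl, 16.1, 10.1, 13.3, 5.66 and 9.10 TPM with angII, and 2.36, 13.9 and 2.21 TPM with angII+VEGFC. The 13.9 TPM library was mouse 6, and the difference was -1.40 (SE 0.63, limma adjusted p = 0.455). Cdk1 was listed at 0 in ctrl replicate 1 and at 6.73 to 10.6 TPM in the other ctrl libraries, at 1.11 to 8.55 TPM with angII, and at 0, 9.95 and 1.21 TPM with angII+VEGFC. Its difference was -1.29 with an interval from -3.37 to 0.78 (limma adjusted p = 0.618), and it was -0.068 without angII+VEGFC replicate 1 and -2.75 without mouse 6. For Mki67 the difference was -0.54 without angII replicate 2 and -0.49 without angII replicate 1.

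Birc5, which encodes survivin, a part of the complex that corrects chromosome attachment, was at 1.60 to 16.1 TPM with angII and at 0.0462, 9.29 and 1.53 TPM with angII+VEGFC (log2 difference -2.03, SE 0.72, limma adjusted p = 0.416). The subunits of ribonucleotide reductase, which makes deoxynucleotides, were also lower in most angII+VEGFC libraries. Rrm1 was at 28.9 to 46.4 TPM with angII and at 16.5, 25.5 and 24.4 TPM with angII+VEGFC. The angII and angII+VEGFC values of Rrm1 did not overlap, as for 2 of the 38 genes (Foxm1 the other) and 7.33% of all genes, and the difference was -0.88 (SE 0.28, limma adjusted p = 0.413). Rrm2 was at 4.68 to 8.92 TPM with angII and at 0, 11.5 and 1.39 TPM with angII+VEGFC (-2.15, SE 0.78, limma adjusted p = 0.422, and -3.43 without mouse 6). Most of the other replication genes did not share this direction, since the median of the group was 0.11 and 6 of 10 were positive. Pcna, the sliding clamp of the replication fork, had a difference of 0.09 with an interval of -0.48 to 0.66.

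Ccnd1, the D cyclin that responds to mitogens, had the opposite sign. Its level was 94.9, 99.7, 174.7 and 123 TPM in ctrl heart LECs, 77.4, 61.1, 94.996, 87.6 and 94.2 TPM with angII, and 140.6, 128.9 and 70.3 TPM with angII+VEGFC. Of the angII+VEGFC libraries, 2 lay above all angII libraries and 1 within their range, and the log2 difference was 0.75 (SE 0.24, interval 0.24 to 1.25, limma adjusted p = 0.413). Cdkn1a, an inhibitor of cyclin-dependent kinases induced by p53, had a difference of -0.56 (interval -1.19 to 0.06, limma adjusted p = 0.492), which was -0.91, -0.85 and -0.26 without angII+VEGFC replicates 1, 2 and 3.

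The endothelial libraries were sequenced in 2 batches, and mouse 6 was the only angII+VEGFC mouse in batch 1. Within batch 1 (1 against 3 libraries) the heart LEC difference of angII+VEGFC from angII was 0.14 for Top2a, 1.18 for Cdk1, 0.34 for Birc5 and 0.73 for Rrm2. Within batch 2 (2 against 2 libraries) it was -1.39, -2.47, -1.52 and -2.47. These 4 genes had opposite signs in the batches, while Rrm1 was at -0.53 and -0.78 and Ccnd1 at 0.54 and 0.44. Values within a batch are plain differences of means, while the fitted differences above were adjusted for age and batch. Without mouse 6 the mitotic median was -1.42 and 7 of the 38 genes were lower at an unadjusted p under 0.05, where 5.96% of all genes were, with a median over all genes of -0.35.

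**Figure D1:**
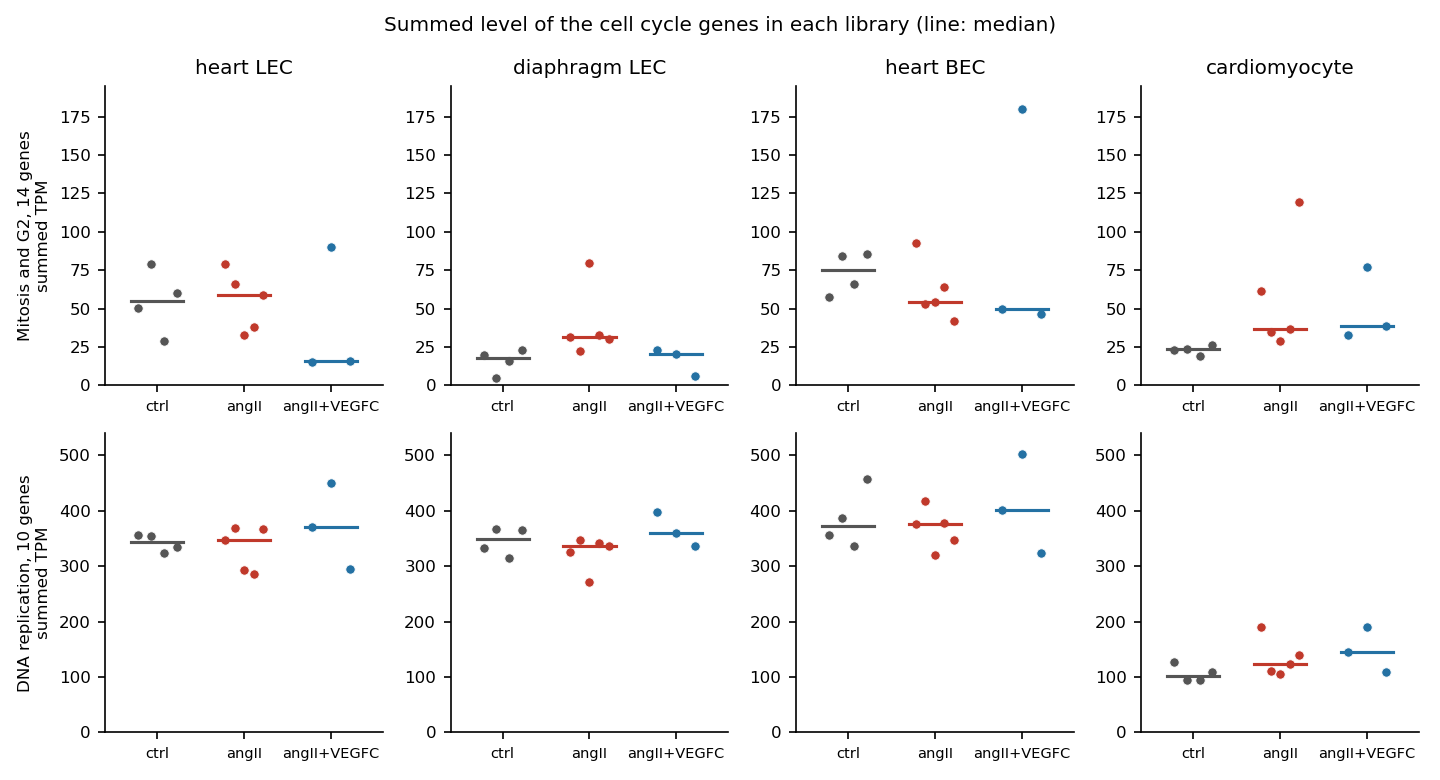
Summed TPM of the 14 mitosis and G2 genes (top) and of the 10 DNA replication genes (bottom) in each library, by treatment in 4 panels for the populations, with a line at the median. In cardiomyocytes all angII and angII+VEGFC mitotic sums (28.9 to 119.6 TPM) lie above the ctrl sums (18.9 to 26.4 TPM). In heart LECs 2 of 3 angII+VEGFC sums (15.1 and 16.0 TPM) lie below all other libraries, and that of mouse 6 (90.2 TPM) lies above them all. In diaphragm LECs 4 of 5 angII sums lie above the ctrl sums (4.93 to 23.1 TPM).

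In diaphragm LECs, which carry the same receptor outside the heart, 0 of 37 genes passed between angII+VEGFC and angII (0% of 23839 genes), and 0 had an unadjusted p under 0.05, where 8.78% of all genes did in either direction. E2f1 did not reach the expression filter of 1 TPM in 3 libraries. Mki67 was at 0.939 to 8.29 TPM with angII and at 0.754, 0.435 and 0.497 TPM with angII+VEGFC, without overlap (log2 difference -0.73, SE 0.59, limma adjusted p = 0.676). Such lower values without overlap were found in 2 of the 37 genes and in 7.35% of all genes. Ctrl libraries were at 1.07, 0.156, 1.32 and 0.546 TPM and overlapped both. The differences were -0.95 for Top2a (interval -2.28 to 0.39), -0.24 for Cdk1 (-1.59 to 1.11), 0.02 for Pcna (-0.37 to 0.41), 0.74 for Ccnd1 (-0.15 to 1.64) and 0.10 for Cdkn1a (-0.39 to 0.60). The mitotic median was -0.72 with 2 of 14 positive, against -0.21 over all genes. After quantile normalization the mitotic median was -0.12, where the median of all genes was 0.03. With the number of detected genes as a covariate it was 0.29, with 11 of 14 positive. That number was 20062 to 23691 with angII and 14963 to 18373 with angII+VEGFC. These ranges did not overlap, so that fit cannot tell the part of this number from that of treatment. Without angII replicate 3, the library that stood apart, the mitotic median was -0.36. The differences were then -0.25 for Mki67, -0.54 for Top2a, -0.49 for Cdk1 and 0.27 for Ccnd1. Without angII+VEGFC replicate 2 Mki67 was at -0.38. Within batches 1 and 2 the difference was -1.29 and -0.34 for Mki67, -1.16 and -1.37 for Top2a, and 0.90 and -1.13 for Cdk1. Leukocyte markers summed to 64.0 to 261 TPM with angII and 11.8 to 38.6 TPM with angII+VEGFC. Cardiomyocyte markers summed to 17.1 to 388 TPM and 5.41 to 12.9 TPM, also without overlap, while the other marker sums overlapped. The part of such cells in the cycle gene values was not tested.

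In heart BECs 0 of 37 genes passed (0% of 21281 genes) and 0 had an unadjusted p under 0.05, where 2.59% of all genes did. The log2 difference of angII+VEGFC from angII was 0.12 for Mki67 (interval -0.64 to 0.89), 0.09 for Top2a (-0.75 to 0.93), 0.29 for Cdk1 (-0.73 to 1.31), -0.04 for Pcna (-0.64 to 0.56), -0.04 for Ccnd1 (-0.70 to 0.61) and -0.34 for Cdkn1a (-1.13 to 0.46). Cdk1 was at 7.36 to 14.2 TPM with angII and at 8.26, 41.1 and 8.22 TPM with angII+VEGFC. The 41.1 TPM library was mouse 6, whose mitotic sum of 180.1 TPM stood against 50.0 and 46.3 TPM in the other angII+VEGFC libraries and 41.7 to 92.4 TPM with angII. The mitotic median of 0.27, with 13 of 14 positive, turned to -0.33 with 1 of 14 positive without that mouse, and 4 genes were then lower at an unadjusted p under 0.05, where 1.3% of all genes were, with a median over all genes of 0.03. Within batch 1, where mouse 6 is the treated library, Cdk1 was at 2.01 and Ccnd1 at 1.03, and within batch 2 at -0.59 and -0.42.

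In cardiomyocytes 0 of 37 genes passed between angII+VEGFC and angII (0% of 15691 genes). At an unadjusted p under 0.05, 1 gene was lower, where 1.56% of all genes were. This was Foxm1, a transcription factor of the mitotic genes, at 1.34 to 3.98 TPM with angII and 1.102, 1.36 and 0.691 TPM with angII+VEGFC (log2 difference -0.67, SE 0.30, limma adjusted p = 1.00). The differences were 0.11 for Mki67 (-0.63 to 0.86), 0.11 for Top2a (-0.64 to 0.86), -0.53 for Cdk1 (-1.38 to 0.33), -0.10 for Pcna (-0.59 to 0.39), 0.12 for Ccnd1 (-0.51 to 0.75) and -0.09 for Cdkn1a (-0.86 to 0.68). That of Cdk1 was -0.87 without mouse 6, -0.30 without angII replicate 5 and -0.19 without angII+VEGFC replicate 3. The intervals show what size could have been missed: for Mki67 and Top2a a difference of up to 0.86 on the log2(TPM + 1) scale lies inside them. At such low levels this scale understates the change in TPM itself.

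**Figure D2:**
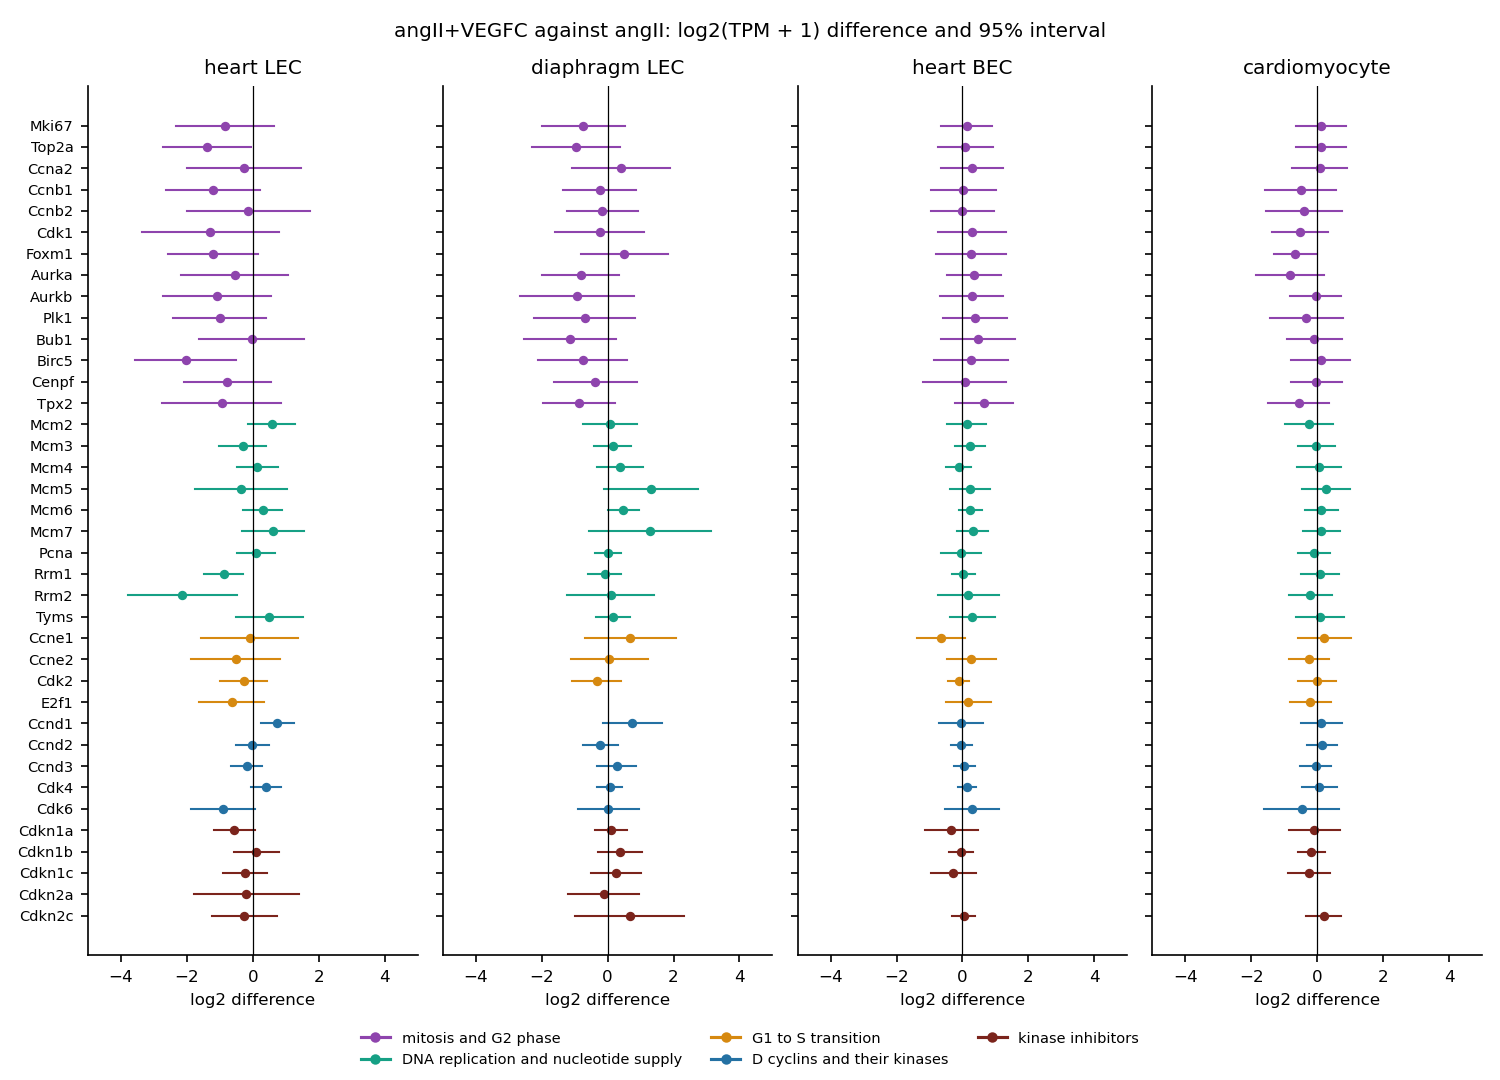
Log2(TPM + 1) difference of angII+VEGFC from angII with its 95% interval from limma for each cycle gene tested, in 4 panels for the populations and coloured by role. Most intervals include 0 and are widest for the mitotic genes of the LECs, such as Cdk1 in heart LECs (-3.37 to 0.78).

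Whether the growth factor difference itself differed between populations was tested in a fit of the 36 endothelial libraries. This interaction had 0 of 38 members past the threshold in each of the 3 pairs of populations (0% of 32754 genes in each pair). The interaction of heart LECs against heart BECs was -0.97 for Mki67 (SE 0.66), -1.44 for Cdk1 (SE 0.98) and 0.30 for Ccnd1 (SE 0.49), with limma adjusted p of 0.785, 0.785 and 0.903. Rrm1 gave -0.79 (SE 0.26) against heart BECs and -0.73 (SE 0.26) against diaphragm LECs, with limma adjusted p of 0.768 and 0.899.

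Angiotensin II raises blood pressure and loads the heart. In cardiomyocyte pellets most cycle genes had positive differences under it, and none passed the adjusted test. Between angII and ctrl, 0 of 37 genes passed where 0.0892% of all genes (14 of 15691) did. At an unadjusted p under 0.05, 10 of 37 genes were higher, where 8% of all genes were, and 0 were lower. Differences were positive for 34 of 37 cycle genes and for 10713 of all 15691. All 14 mitotic genes were positive, with a median of 0.80 against 0.12 over all genes, and after quantile normalization 13 of 14 were, with a median of 0.65 against a median of all genes near 0. The medians of the other groups were 0.27 for replication (9 of 10 positive), 0.35 for the G1 to S transition (4 of 4), 0.18 for D cyclins and their kinases (4 of 5) and 0.17 for inhibitors (3 of 4).

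Cdk1 was at 4.28, 3.26, 2.70 and 3.44 TPM in ctrl cardiomyocytes, 13.5, 7.14, 4.81, 10.0 and 20.1 TPM with angII, and 6.20, 15.3 and 4.58 TPM with angII+VEGFC. Every treated library lay above every ctrl library, and the angII difference was 1.40 on the log2 scale (SE 0.35, interval 0.66 to 2.15, limma adjusted p = 0.139). Ccna2, the cyclin of S and G2 phase, was at 2.66, 1.85, 1.69 and 1.66 TPM in ctrl, 7.14, 2.77, 3.23, 2.76 and 11.9 TPM with angII, and 5.27, 9.29 and 4.22 TPM with angII+VEGFC (1.05 for angII, SE 0.34, limma adjusted p = 0.271). Here too the ctrl libraries were lowest, and the margin between the highest ctrl and the lowest angII library was small.

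Foxm1 was at 0.703 to 0.955 TPM in ctrl and 1.34 to 3.98 TPM with angII (difference 0.81, SE 0.26, limma adjusted p = 0.276). Of its angII+VEGFC values, 1 lay below the ctrl range, 1 between ctrl and angII and 1 within the angII range. Tyms, thymidylate synthase, was at 12.1, 9.06, 10.95 and 8.69 TPM in ctrl, 27.8, 15.7, 12.9, 14.4 and 29.8 TPM with angII, and 22.9, 36.7 and 12.6 TPM with angII+VEGFC (0.90 for angII, SE 0.30, limma adjusted p = 0.291). Mcm6 was at 14.4, 12.5, 10.9 and 13.6 TPM in ctrl, 22.6, 16.7, 18.7, 19.2 and 18.1 TPM with angII, and 22.7, 29.6 and 14.5 TPM with angII+VEGFC (0.55 for angII, SE 0.20, limma adjusted p = 0.356). E2f1, the E2F factor of the G1 to S transition, was at 0.654 to 1.46 TPM in ctrl and 1.41 to 3.14 TPM with angII (0.72, SE 0.25, limma adjusted p = 0.330).

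The remaining genes of the 10 were Aurkb, a kinase of chromosome segregation (0.84, SE 0.32), Tpx2, a spindle factor (0.99, SE 0.38), Top2a (0.70, SE 0.31) and Ccnb1, a B cyclin (0.99, SE 0.43). Values of 6 genes, Ccna2, Cdk1, Foxm1, Mcm5, Mcm6 and Tyms, did not overlap between angII and ctrl with angII higher, where 5.1% of all genes did not. Without angII replicate 5 the mitotic median was 0.46 and 7 genes were higher at an unadjusted p under 0.05, where 6.73% of all genes were. Ccnb1 was then at 0.59. Leaving out each library in turn gave 5 to 12 such genes, where 5.16% to 12.4% of all genes were higher.

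**Figure D3:**
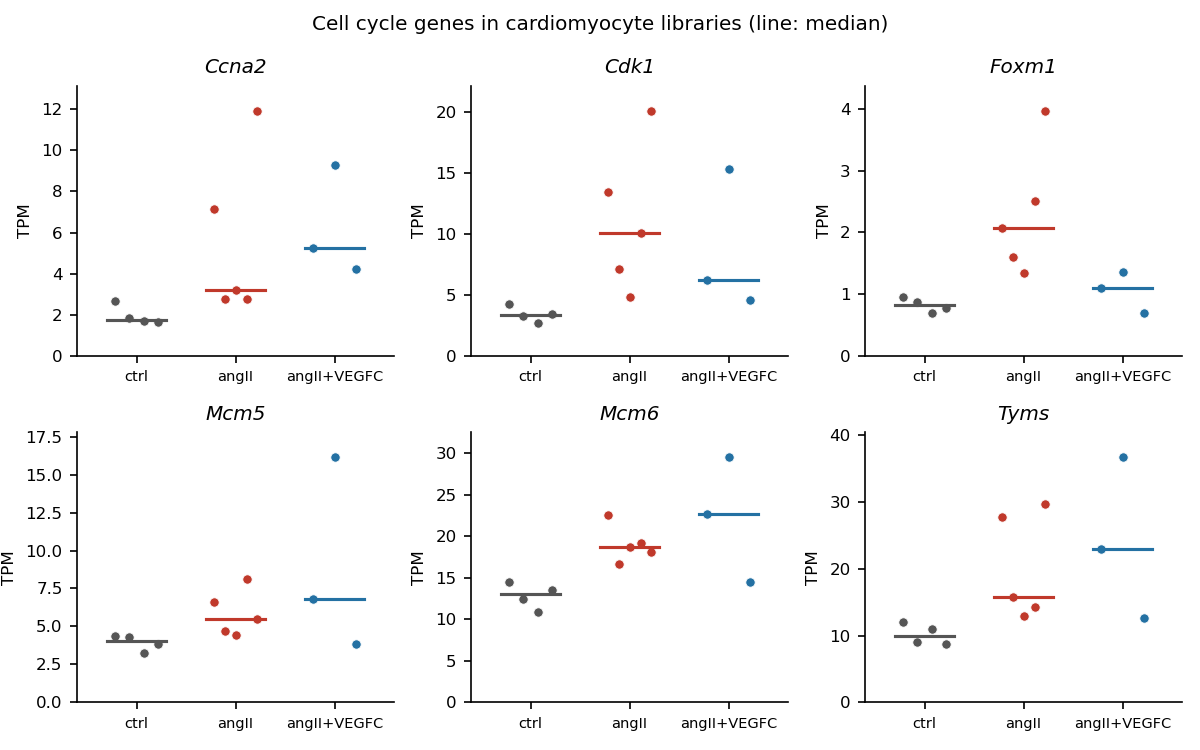
TPM of Ccna2, Cdk1, Foxm1, Mcm5, Mcm6 and Tyms in each cardiomyocyte library by treatment, with a line at the median. The ctrl libraries (Cdk1 2.70 to 4.28 TPM) lie below all angII libraries (4.81 to 20.1 TPM) in each of the 6 genes.

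The angII+VEGFC cardiomyocytes were compared with the same ctrl libraries, so the comparisons share their controls. None of 37 genes passed, where 0.663% of all genes (104 of 15691) did, and 7 were higher at an unadjusted p under 0.05, where 8.15% of all genes were. These were Ccna2 (log2 difference 1.13, SE 0.39), Cdk1 (0.88, SE 0.40), Top2a (0.81, SE 0.35), Aurkb (0.78, SE 0.36), Tyms (0.98, SE 0.34), Mcm5 (0.76, SE 0.35) and Mcm6 (0.68, SE 0.23), with limma adjusted p between 0.214 and 0.378. The mitotic median was 0.46 with 13 of 14 positive, against 0.11 over all genes. Without angII replicate 5 and mouse 6 it was 0.24, and 3 genes were higher, where 8.09% of all genes were. Cdk1 was at 0.50 and Mcm5 at 0.32 without mouse 6 alone, and Mcm5 at 1.19 without angII+VEGFC replicate 3.

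Summed leukocyte markers were higher in the treated cardiomyocyte libraries too, and summed fibroblast markers were with a small overlap. None of these leukocyte markers passed the test in a treatment comparison of cardiomyocytes, and neither did any cycle gene. The 10 leukocyte markers, all above 0 in every cardiomyocyte library, summed to 428 to 564 TPM in ctrl, 593 to 1266 TPM with angII and 630 to 1351 TPM with angII+VEGFC, without overlap with ctrl. Lyz2 made up most of this leukocyte sum, at a median of 567 TPM. The 6 fibroblast markers summed to 2157 to 3113 TPM in ctrl, 3102 to 4551 TPM with angII and 3091 to 4724 TPM with angII+VEGFC. Dcn made up most of that sum, at a median of 2339 TPM. Sums of mural cell markers (891 to 1641 TPM in ctrl, 914 to 1347 TPM with angII) and of erythroid markers overlapped between all groups. Blood endothelial markers overlapped between all groups (1855 to 3179 TPM), and cardiomyocyte markers were at 10460 to 16325 TPM in ctrl, 7934 to 19112 TPM with angII and 6951 to 11544 TPM with angII+VEGFC. The highest leukocyte sums were in mouse 6 (1351 TPM) and angII replicate 1 (1266 TPM), whose mitotic sums were 76.8 and 61.7 TPM. In angII replicate 5, which had the highest mitotic sum (119.6 TPM), the leukocyte sum was 791 TPM. The 6 lymphatic markers summed to 96.3 to 187 TPM in ctrl, 132 to 271 TPM with angII and 92.6 to 191 TPM with angII+VEGFC, and overlapped. The part of these cells in the cycle gene values was not tested.

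**Figure D4:**
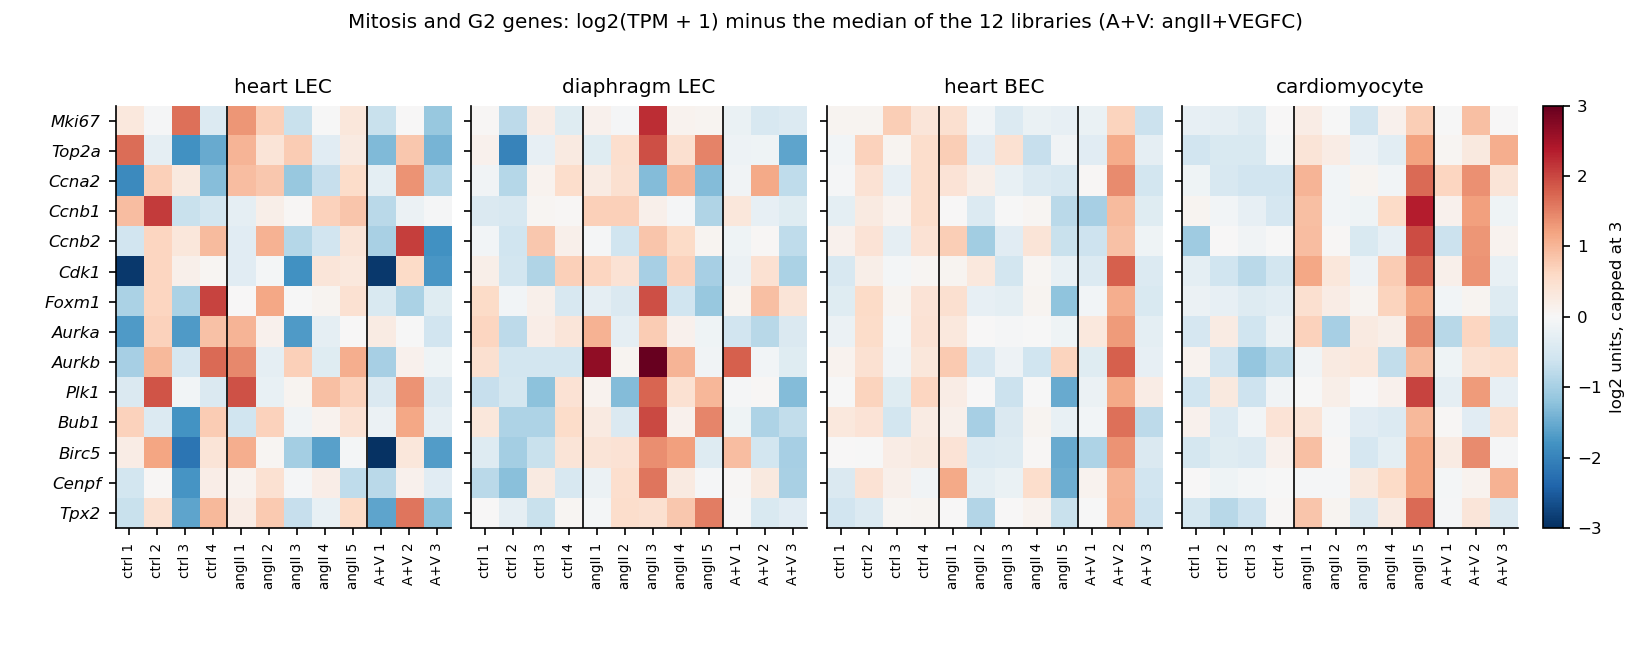
Log2(TPM + 1) of the 14 mitosis and G2 genes in each of 12 libraries of each population, minus the median of those libraries and capped at 3 in either direction, with A+V standing for angII+VEGFC. Single columns carry most of the high values, among them mouse 6 (angII+VEGFC replicate 2) in heart BECs, where 12 of the 14 genes are highest, and angII replicate 5 in cardiomyocytes, also with 12 of 14.

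In heart LECs 0 of 38 genes passed between angII and ctrl, where 0.0261% of all genes (7 of 26803) did. At an unadjusted p under 0.05, 3 genes were lower, where 1.93% of all genes were, and 0 higher. Ccnd1 (61.1 to 94.996 TPM with angII, 94.9 to 174.7 TPM in ctrl) differed by -0.68 (SE 0.20, limma adjusted p = 0.264) and was at -0.54 and -0.59 within the 2 batches. Ccnd2, another D cyclin, was at 272, 329, 309 and 326 TPM in ctrl and 213, 170, 169, 209 and 318 TPM with angII (-0.56, SE 0.20, limma adjusted p = 0.337, -0.36 and -0.79 within batches). Mcm2, a helicase subunit, differed by -0.66 (SE 0.29, limma adjusted p = 0.420). The mitotic median was 0.34 against 0.23 over all genes, and -0.05 after quantile normalization, where the median of all genes was -0.01. Blood endothelial markers in heart LECs were at 3129 to 7543 TPM with angII, above the 1529 to 2873 TPM of ctrl and the 2007 to 2338 TPM of angII+VEGFC, and erythroid markers were at 2063 to 6531 TPM with angII, 6.98 to 2186 TPM in ctrl and 12.2 to 575 TPM with angII+VEGFC. The 6 fibroblast markers summed to 856 to 1389 TPM in ctrl, 690 to 1576 TPM with angII and 932 to 1275 TPM with angII+VEGFC, with overlap, and 1 of them, Col1a2, passed the test between angII and ctrl (log2 difference 2.84, limma adjusted p = 0.0293). The part of such cells in the values of the cycle genes was not tested.

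Between angII+VEGFC and ctrl in heart LECs 0 of 38 genes passed (0% of all genes) and 3 were lower at an unadjusted p under 0.05, where 3.22% of all genes were. These were Birc5 (-1.87, SE 0.70), Rrm1 (-0.66, SE 0.28) and Ccnd2 (-0.58, SE 0.23), each with a limma adjusted p of 0.915. Birc5 was at 1.33 within batch 1 and -3.10 within batch 2. Ccnd2 was at 233, 184 and 194 TPM with angII+VEGFC, below all ctrl libraries, as in 2 of the 38 genes and 2.14% of all genes.

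In diaphragm LECs 0 of 37 genes passed between angII and ctrl (0% of all genes). At an unadjusted p under 0.05, 2 genes were higher, where 13.9% of all genes were, and 1 lower, where 1.45% of all genes were. Top2a was at 0.0788 to 4.23 TPM in ctrl and 2.37 to 15.7 TPM with angII (log2 difference 1.204, SE 0.54, limma adjusted p = 0.318). Aurkb was listed at 0 in 3 ctrl libraries and at 1.05 TPM in the fourth, and was at 0.355 to 12.3 TPM with angII (1.60, SE 0.70, limma adjusted p = 0.315). Mcm6 was at 37.1, 40.0, 38.7 and 41.6 TPM in ctrl, 30.0, 26.7, 26.2, 35.9 and 22.5 TPM with angII, and 43.4, 35.7 and 42.5 TPM with angII+VEGFC. Its ctrl and angII values did not overlap, with angII lower, as in 1 of 37 genes and 0.663% of all genes (-0.46, SE 0.19, limma adjusted p = 0.307), and both batches gave the same sign (-0.53 and -0.39). Without angII replicate 3 the differences were 0.86 for Top2a, 1.22 for Aurkb and -0.46 for Mcm6, and without ctrl replicate 3 that of Top2a was 0.73. The mitotic median of 0.77 stood against 0.28 over all genes, was 0.44 without angII replicate 3, where that of all genes was 0.20, and became -0.08 after quantile normalization, where the median of all genes was -0.02, and -0.43 with the number of detected genes as a covariate. That number was 12924 to 18116 in ctrl and 20062 to 23691 with angII. The groups did not overlap in it, so the covariate fit cannot tell its part from that of treatment.

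For angII+VEGFC against ctrl in diaphragm LECs, 0 of 37 passed (0%) and 0 had an unadjusted p under 0.05, where 1.32% of all genes did. In heart BECs 0 of 37 passed between angII and ctrl (0%) or between angII+VEGFC and ctrl (0%), and 0 had an unadjusted p under 0.05 in either, where 5.4% and 5.51% of all genes did. The mitotic medians in heart BECs were -0.27 and -0.01, against -0.06 and -0.01 over all genes.

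Members passed the test between populations, and not between treatments. The population comparisons used more libraries per side than the treatment comparisons, so these outcomes are not alike in power. In ctrl libraries alone, 3 genes passed between heart LECs and heart BECs. In the same libraries 9 passed between diaphragm LECs and heart BECs, and 1 between the LEC populations. Differences between the 3 sorted populations were averaged over treatments in the fit of 36 libraries and adjusted for age and batch. Heart LECs differed from heart BECs in 12 of 38 genes. Of these 3 were higher, where 8.94% of all genes were, and 9 were lower, where 8.64% of all genes were. Diaphragm LECs differed from heart BECs in 21 genes, 2 higher, where 7.54% of all genes were, and 19 lower, where 9.01% of all genes were. That pair differs in organ as well as in cell type. Heart LECs differed from diaphragm LECs in 2 genes, both higher, where 2.67% of all genes were higher and 1.88% lower. All 35 differences had the same sign within both sequencing batches. With the mouse as a random replicate block, the heart and diaphragm LECs differed in 5 genes, the additional ones being Bub1, Ccnb2 and Cdk1, and with the mouse as a fixed block in 8.

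Among mitotic genes Cdk1 had the largest difference in each pair of populations. It was at 0 to 10.6 TPM (median 6.40) in heart LECs, 0 to 2.28 TPM (median 1.03) in diaphragm LECs and 7.36 to 41.1 TPM (median 11.2) in heart BECs. Diaphragm LECs and heart BECs did not overlap, with a log2 difference of -2.82 (SE 0.40, limma adjusted p = 8.92e-07). Heart LECs were lower than heart BECs by -1.51 (SE 0.40, limma adjusted p = 0.00568), and heart LECs against diaphragm LECs gave 1.31 (SE 0.40, limma adjusted p = 0.0523). All 14 mitotic genes were on the lower side in diaphragm LECs against heart BECs, 9 of them past the threshold, with a median of -1.14 against 0.03 over all genes. They included Mki67 (-1.201), Top2a (-1.06), Ccnb2 (-1.82), Birc5 (-1.81) and Ccna2 (-1.67). In heart LECs against heart BECs 12 of 14 were negative and 3 passed, Ccnb1 (-0.87), Cdk1 and Foxm1 (-0.98). Foxm1 did not pass without the filter on low values (limma adjusted p = 0.0523) or with the number of detected genes as a covariate (limma adjusted p = 0.0538). Its call changed in 13 of 36 fits that left out 1 library. The median levels of the mitotic genes had a median of 3.44 TPM in heart BECs, 2.36 TPM in heart LECs and 1.16 TPM in diaphragm LECs.

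The replication genes were more alike, with a median level of 29.0 TPM in heart LECs, 30.7 TPM in diaphragm LECs and 28.1 TPM in heart BECs. Rrm2, the cycle-regulated subunit of ribonucleotide reductase, was at a median of 6.34, 2.46 and 10.6 TPM and was lower than in heart BECs in both heart LECs (-1.25, SE 0.34) and diaphragm LECs (-1.84, SE 0.34). Tyms went the other way and was higher in diaphragm LECs than in heart BECs by 0.78 (SE 0.20, limma adjusted p = 0.00456), at medians of 62.9 and 36.04 TPM. Mcm6 and Mcm7 were lower in diaphragm LECs (-0.51 and -0.997), and Pcna was lower than in heart BECs in both LEC populations (-0.39 and -0.40). E2f1 was at 0 to 1.26 TPM in heart LECs and 1.24 to 2.83 TPM in heart BECs, with differences of -1.04 (SE 0.20) for heart LECs and -0.96 (SE 0.20) for diaphragm LECs.

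The D cyclins act as sensors of growth signals and were abundant in every population. Ccnd3 was at a median of 281 TPM in heart BECs, 152 TPM in heart LECs and 127 TPM in diaphragm LECs, lower than in heart BECs by -0.85 (SE 0.12, limma adjusted p = 1.59e-06) and -1.15 (SE 0.12, limma adjusted p = 2.88e-09). Ccnd1 was at medians of 94.9 and 94.2 TPM in heart LECs and heart BECs and at 59.0 TPM in diaphragm LECs, and heart LECs were higher than diaphragm LECs by 0.94 (SE 0.20, limma adjusted p = 0.00234). Cdk4 was higher in both LEC populations than in heart BECs (0.42 and 0.39, SE 0.08 each), at medians of 219, 230 and 173 TPM. Ccnd2 was at 223, 261 and 255 TPM and Cdk6 at 11.7, 18.3 and 9.85 TPM, and neither passed in any pair.

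Cdkn1c, an inhibitor linked to quiescence, had the largest difference of all members in both comparisons with heart BECs. It was at 62.8 to 202 TPM in heart LECs, 28.5 to 103 TPM in diaphragm LECs and 181 to 526 TPM in heart BECs. Heart LECs were lower than heart BECs by -1.74 (SE 0.18, limma adjusted p = 3.78e-09) and higher than diaphragm LECs by 1.24 (SE 0.18, limma adjusted p = 1.75e-05). Diaphragm LECs differed from heart BECs by -2.98 (SE 0.18, limma adjusted p = 4.85e-15), so all 3 populations were ordered. Summed blood endothelial markers had the same order, with medians of 17170 TPM in heart BECs, 2605 TPM in heart LECs and 1159 TPM in diaphragm LECs. This order was not particular to them. Erythroid markers shared it (8538, 2072 and 567 TPM), as did the sums for mural cells and for endothelium in general. Lymphatic, cardiomyocyte, leukocyte and fibroblast sums did not. The part of blood endothelial cells, or of any of these other cells, in the Cdkn1c differences was not tested. Cdkn1a was the most abundant member in each population, at a median of 1625 TPM in heart BECs, 830 TPM in heart LECs and 882 TPM in diaphragm LECs. The LEC populations were both lower than heart BECs (-0.93 and -0.70, SE 0.17 each) and did not pass between each other (-0.24, interval -0.57 to 0.10). Cdkn1b and Cdkn2a were higher in heart LECs than in heart BECs (0.34 and 0.88), with Cdkn2a at medians of 1.05 and 0.250 TPM, and Cdkn2c was lower in diaphragm LECs than in heart BECs (-0.995, SE 0.31). Cdkn1b did not pass after quantile normalization (limma adjusted p = 0.279), without covariates or with a pseudocount of 0.1. Its call changed in 18 of 36 fits that left out 1 library. Cdkn2a did not pass with that pseudocount either (limma adjusted p = 0.0933). Without mouse 6 the heart LEC and diaphragm LEC comparisons with heart BECs had 9 and 16 genes past the threshold, and 5 of the differences above were lost in each: Ccnb1, Foxm1, Pcna, Cdkn1b and Cdkn2a for heart LECs, and Top2a, Aurka, Mcm7, Pcna and Cdkn2c for diaphragm LECs.

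**Figure D5:**
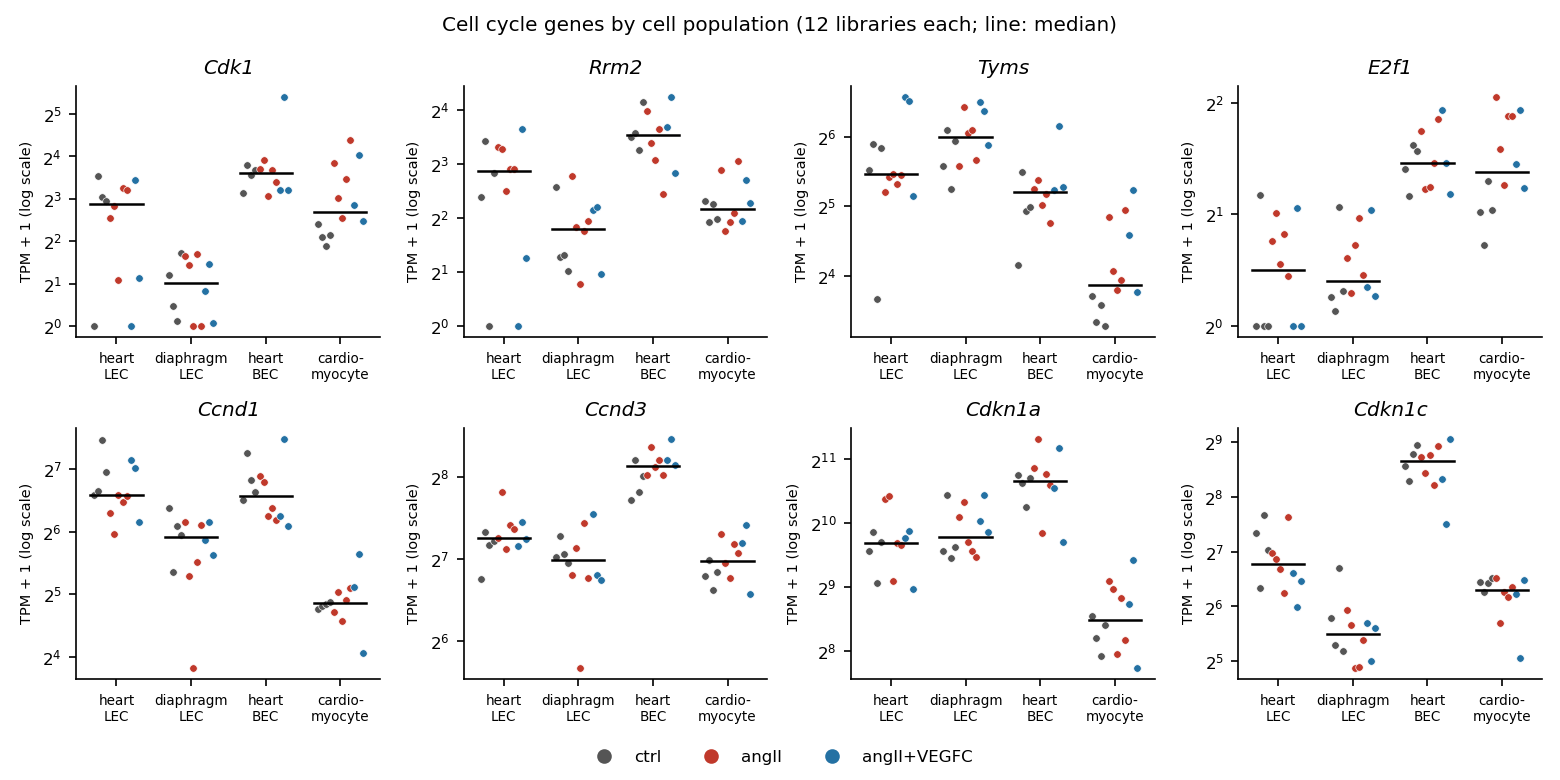
TPM + 1 on a log axis of Cdk1, Rrm2, Tyms, E2f1, Ccnd1, Ccnd3, Cdkn1a and Cdkn1c in each library by population, coloured by treatment, with a line at the median. Cdkn1c is ordered heart BECs, heart LECs, diaphragm LECs (medians 399, 108 and 44.4 TPM), and Cdk1 lies lowest in diaphragm LECs.

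Cardiomyocytes were sequenced as a batch of their own, so population and batch cannot be told apart and their levels are given without a test. Median levels were 5.50 TPM for Cdk1 (2.70 to 20.1), 0.991 TPM for Mki67, 34.7 TPM for Pcna, 13.6 TPM for Tyms, 28.1 TPM for Ccnd1, 173 TPM for Ccnd2, 357 TPM for Cdkn1a and 78.2 TPM for Cdkn1c. Cdkn1a was again the highest member. The mitotic genes had a median level of 1.92 TPM and the replication genes of 9.07 TPM.

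A wider list of 82 other cycle genes gave the same counts of calls between treatments, 0 in every contrast. In cardiomyocytes with angII against ctrl, all 33 other G2 and mitosis genes tested were positive, 13 of them at an unadjusted p under 0.05 (8% of all genes), with a median of 0.64. Of 22 other S phase genes 20 were positive (median 0.25, 1 at an unadjusted p under 0.05), and pocket proteins, E2F factors and other brakes had a median of 0.11. In heart LECs with angII+VEGFC against angII, 10 of 35 other G2 and mitosis genes were lower at an unadjusted p under 0.05 (9.75% of all genes) and 1 higher (1.09%), and 4 of 22 other S phase genes were lower, with medians of -0.63 and -0.60 against -0.37 over all genes.

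Between populations, diaphragm LECs were lower than heart BECs in 17 of 36 other G2 and mitosis genes and 9 of 22 S phase genes, where 9.01% of all genes were lower, and higher in 3 and 0, where 7.54% were higher. The largest were Ube2c, a ubiquitin-conjugating enzyme of mitotic exit (-2.55, SE 0.42), Cdc6, which loads the helicase at origins (-2.21, SE 0.28), and Kif23, a kinesin of cytokinesis (-2.20, SE 0.26). In heart LECs against heart BECs the largest were Kif23 (-2.06, SE 0.26), E2f7, a repressive E2F factor (-1.79, SE 0.27), and Rb1, the retinoblastoma protein itself (-1.74, SE 0.27). Between heart and diaphragm LECs they were Tk1, thymidine kinase (1.22, SE 0.32), Tfdp2, a partner of E2F factors (0.86, SE 0.18), and Nusap1, a spindle protein (0.84, SE 0.22).

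Age was a covariate of every fit. No member passed for age in heart LECs, diaphragm LECs, heart BECs or cardiomyocytes, where 0% of genes passed in each. In heart LECs 5 genes were lower with age at an unadjusted p under 0.05, where 5.6% of all genes were, and 1 was higher, where 1.32% were. Top2a (-0.17), Plk1 (-0.16), Birc5 (-0.27), Mcm5 (-0.16) and Rrm2 (-0.21) were lower, and Ccnd1 (0.07) was higher, per labelled month on the log2 scale, each with a limma adjusted p of 0.716. The unit is uncertain, since the labels give months and the authors weeks.

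Exons of 14 members share bases with another annotated gene, 12 of them with a gene on the opposite strand, and no strand setting was stated. Ccnd1 shares 1100 of 4709 bases, Cdk4 641 of 3249, Cdkn1c 625 of 2039 and Ccna2 510 of 4083. The reads of such a pair cannot be told apart without strand, so these levels are uncertain by the share that the partner contributes. The Cdkn2a row sums the transcripts of a locus that encodes different proteins. Pseudogene copies of Ccnb1 and Ccnb2 had rows of their own, at medians of 0.222 and 0.531 TPM against 1.39 and 2.98 TPM for the genes.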

How the data were processed

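Single mice gave each library, prepared with an ultra low input Smart-Seq kit. The authors aligned reads to GRCm38 with STAR 2.5.3a, quantified Ensembl genes with Salmon 0.12.0 and deposited 1 matrix in TPM. They tested counts with age, batch and surrogate variables in the model. TPM values are not counts, so limma 3.58.1 (R 4.3.3) with a variance trend was used here on log2(TPM + 1). Differences on this scale understate the change of low genes. Genes reaching 1 TPM in 3 libraries of a population were fitted with all 3 treatments, age and batch (cardiomyocytes, age alone). P-values were two-sided and Benjamini-Hochberg adjusted over all genes tested, with a threshold of 0.05. Replicate counts follow the labels. Any 2 libraries differed in at least 26732 genes. Libraries of different populations were paired by the labelled mouse number (consensus correlation 0.130 within mouse). The mouse block, other pseudocounts, filters, normalizations and left-out libraries were alternatives. Self-tests used simulated data.

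The members and lists were chosen with earlier results of these data known. Test values are printed for Mki67, Top2a, Cdk1, Pcna, Ccnd1 and Cdkn1a in the growth factor comparison, and elsewhere for members with an unadjusted p under 0.05. Figures used Python 3.11.15 and matplotlib 3.10.9.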

Additional observations from a re-analysis of the deposited data

Results flagged for a closer look

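Within groups of 4 or 5 libraries, 344 sets of values were searched for a library far from the others by Dixon's criterion, and 26 had one. Chance flags about 1 in 20 groups, which here gives 17.2. None of these values was weighed further.

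In diaphragm LECs angII replicate 3 held 6 of them. Mki67 was at 8.29 TPM (others 0.939 to 1.18), Foxm1 at 7.40 TPM (0 to 0.822), Cenpf, a kinetochore protein, at 7.56 TPM (1.49 to 2.98) and the mitotic sum at 79.7 TPM (22.7 to 32.9). Mcm4 was low at 9.91 TPM (24.0 to 29.2), as was the replication sum at 271 TPM (325 to 347). The mitotic and replication sums of this library thus lay at opposite ends of its group. Not every gene did, since mitotic Ccna2 and Cdk1 were listed at 0 and Pcna (99.7 TPM) lay within the range of the others. Among diaphragm ctrl libraries, replicate 1 had Aurkb at 1.05 TPM (others listed at 0), Rrm2 at 4.99 TPM (1.03 to 1.49) and Cdk4 at 207 TPM (237 to 242). Replicate 2 had Cdkn1a at 1399 TPM (699 to 789) and an inhibitor sum of 1466 TPM (832 to 860), and replicate 3 had Cdk2 at 15.5 TPM (29.0 to 30.4) and E2f1 at 1.09 TPM (0.0967 to 0.239).

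In cardiomyocytes angII replicate 5 had Ccnb1 at 11.3 TPM (others 1.23 to 3.54) and Plk1, a mitotic kinase, at 7.81 TPM (1.12 to 1.43). Of the other angII libraries, replicate 1 had Mcm3 at 16.7 TPM (7.11 to 9.72) and Cdk2 at 12.9 TPM (7.75 to 9.05), and replicate 2 had Ccne2, an E cyclin, at 0.792 TPM (1.47 to 1.71). Ctrl replicate 1 had Ccnb2 at 0.983 TPM (2.83 to 3.15), Ccnd2 at 233 TPM (163 to 171) and Cdk4 at 86.2 TPM (79.4 to 80.1), and ctrl replicate 4 had Cdkn2c at 12.4 TPM (15.0 to 15.4).

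In heart LECs ctrl replicate 2 had Plk1 at 3.99 TPM (others 0 to 0.283) and E2f1 at 1.26 TPM (others listed at 0). With angII, Mcm7 was at 29.0 TPM in replicate 5 (9.51 to 12.5), and the sum of the G1 to S genes was 47.9 TPM in replicate 1 (24.7 to 29.6). No library of heart BECs met the criterion, where the angII+VEGFC group that holds mouse 6 has 3 libraries and was not searched.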

How the results depend on the processing

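The count of members passing stayed within 1.5 times its reported value in 135 of 143 alternatives and 403 of 408 fits that left out 1 library. A count that stayed at 0 was included. Every treatment, age and interaction comparison had a reported count of 0, so these shares rest mostly on counts of 0. In cardiomyocytes angII against ctrl gave 3 genes (Cdk1, Mcm6 and Tyms) with the number of detected genes as a covariate, 1 (Cdk1) with only the 2 groups compared, and 0 to 1 when libraries were left out (1 without angII+VEGFC replicate 3). Against ctrl, angII+VEGFC gave 4 (Ccna2, Mcm5, Mcm6 and Tyms) with that covariate and 0 to 3 when libraries were left out (3 without angII+VEGFC replicate 3). Heart LECs against heart BECs gave 3 in ctrl libraries only, and diaphragm LECs against heart BECs gave 9. Heart LECs against diaphragm LECs gave 1 in ctrl libraries only, 5 with a random replicate block by mouse, 8 with a fixed one, and up to 5 when libraries were left out (5 without heart LEC ctrl replicate 1 or 3, 4 without diaphragm LEC angII replicate 3). The block by mouse moved no other count by over 1.5 times. The causes of these shifts were not tested.

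Of the log2 differences, 617 of 699 kept sign and call under the alternatives, as did 1808 of 1908 with 1 library left out, and 28 and 31 changed sign. All but 1 of the 28 were differences of angII+VEGFC from angII. With the number of detected genes as a covariate, they were Top2a 0.12 and Pcna -0.20 in heart LECs, Top2a 0.019, Cdk1 1.08 and Pcna -0.072 in diaphragm LECs, Top2a -0.012, Pcna 0.021 and Cdkn1a 0.13 in cardiomyocytes, and Aurkb -0.40 for angII against ctrl in diaphragm LECs. Quantile normalization gave Cdk1 0.074 and Pcna -0.060 in diaphragm LECs. Only the 2 groups gave Mki67 -0.041 in heart BECs and Top2a -0.039 in cardiomyocytes, and no covariates gave Ccnd1 0.10 in heart BECs and Cdkn1a 0.023 in cardiomyocytes. Without angII replicate 5 and mouse 6 (left out after seeing the data, as was mouse 6 between populations) cardiomyocyte Ccnd1 was at -0.15. Batch 1 alone gave Top2a 0.14, Cdk1 1.18 and Cdkn1a 0.17 in heart LECs, Cdk1 0.90 and Pcna -0.13 in diaphragm LECs, and Pcna 0.32, Ccnd1 1.03 and Cdkn1a 0.74 in heart BECs. Batch 2 alone gave Pcna -0.070 in heart LECs, Cdkn1a -0.0019 in diaphragm LECs, and Mki67 -0.28 and Cdk1 -0.59 in heart BECs. Single batches were counted here only for Mki67, Top2a, Cdk1, Pcna, Ccnd1 and Cdkn1a in the comparison of angII+VEGFC with angII. The sign changes of Birc5 and Rrm2 in batch 1 of heart LECs, given above, are therefore not among the 28.

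With 1 library left out, the ranges that crossed 0 were Pcna -0.16 to 0.25 in heart LECs, Cdk1 -0.93 to 0.11, Pcna -0.044 to 0.081 and Cdkn1a -0.20 to 0.32 in diaphragm LECs, Mki67 -0.23 to 0.37, Top2a -0.31 to 0.26, Cdk1 -0.63 to 0.72, Pcna -0.27 to 0.15, Ccnd1 -0.55 to 0.19 and Cdkn1a -0.84 to 0.0079 in heart BECs, and Mki67 -0.13 to 0.28, Top2a -0.12 to 0.36, Pcna -0.29 to 0.14, Ccnd1 -0.21 to 0.49 and Cdkn1a -0.40 to 0.34 in cardiomyocytes. Mitotic genes at a few TPM had the widest intervals, and without read counts the part of depth in them was not tested.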
